A study of Mus musculus with 51 samples.

Results

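Arntl (BMAL1), Clock and Npas2 encode the activating transcription factors of the mammalian circadian clock, and their transcripts are described here in the kidneys of mouse fetuses. The members were taken by name, and all 3 of them were found among the 16099 genes of the expression table and tested among 14426. The series holds 51 libraries of poly-A RNA from wild-type C57BL/6 fetal kidney, untreated as far as the labels say, at 13 time points 4 h apart. These run from CT0 on embryonic day 18 to CT48 on embryonic day 20, CT20 having 3 libraries and the other 12 time points 4 each. The values fall into a series of 27 libraries, CT0 to CT24, and a series of 24 libraries, CT28 to CT48, which are read separately. The labels call the libraries biological replicates and name no dam or litter. The p-values measure the spread of normalised values between these samples, which may share a litter or a collection at each time point.

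BMAL1 pairs with CLOCK, or with its paralog NPAS2, and all 3 proteins belong to the bHLH-PAS family. The pairs bind E-box sequences and activate the Per and Cry genes, whose products inhibit them, and the Nr1d1 and Nr1d2 genes. The products of Nr1d1 and Nr1d2 repress Arntl through ROR elements, where the ROR proteins activate it. In adult mouse tissues Arntl and Npas2 usually cycle with a large amplitude and Clock with a smaller one, and BMAL1 in the adult kidney takes part in the daily control of salt transport and blood pressure.

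Library totals lay from 34226024 to 35711911 after the authors' normalisation, so depth is unknown and values are given as normalised values without a further unit. Levels cannot be compared between the library series: in the 12264 genes whose mean was 100 or more, the log2 ratio of the mean in CT28 to CT48 to that in CT0 to CT24 had a standard deviation (SD) of 0.0321. The median SD within a time point was 0.136 on the log2 scale in CT28 to CT48 and 0.0748 in CT0 to CT24. All measured markers of podocytes, nephron tubules, collecting duct, nephron progenitors and stroma were present, the lowest being Meox1 with a mean of 734. In bulk tissue, fewer cells of a type and less RNA per cell cannot be told apart.

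Arntl (ENSMUSG00000055116.8) lies on chromosome 7 at 113207465 to 113314126 on the plus strand, Clock (ENSMUSG00000029238.11) on chromosome 5 at 76209868 to 76304792 on the minus strand, and Npas2 (ENSMUSG00000026077.15) on chromosome 1 at 39193731 to 39363236 on the plus strand. These are GRCm38 coordinates of protein-coding genes in GENCODE M21. An antisense gene, Gm45355, covers 118 exonic bases of Arntl, and how the authors' counting treated strand is not stated in the labels, so reads of the 2 genes may not be separated there. Sequence ahead of a start site is shown for each gene, and its part in the rise of the transcripts in CT28 to CT48 was not tested. The windows are RefSeq's, build GRCm38.p6, written in the direction of the gene and stopped before any annotated untranslated or coding base. Capitals mark the GC box GGGCGG. The Npas2 stretch lies inside the GENCODE gene, which starts at 39193731, and it ends before the GC box of its window at 39194213.
Arntl, chr7:113207215-113207464, plus strand: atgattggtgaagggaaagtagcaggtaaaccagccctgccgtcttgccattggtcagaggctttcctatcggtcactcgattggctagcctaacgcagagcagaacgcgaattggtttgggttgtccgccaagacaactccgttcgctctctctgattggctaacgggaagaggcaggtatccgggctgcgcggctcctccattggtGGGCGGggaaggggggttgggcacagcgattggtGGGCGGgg
Clock, chr5:76304793-76305042, minus strand: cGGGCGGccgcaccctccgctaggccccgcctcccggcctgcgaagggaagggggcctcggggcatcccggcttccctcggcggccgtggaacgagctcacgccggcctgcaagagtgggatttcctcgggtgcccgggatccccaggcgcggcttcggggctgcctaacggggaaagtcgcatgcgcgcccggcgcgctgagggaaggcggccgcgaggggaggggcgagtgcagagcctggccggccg
Npas2, chr1:39194022-39194211, plus strand: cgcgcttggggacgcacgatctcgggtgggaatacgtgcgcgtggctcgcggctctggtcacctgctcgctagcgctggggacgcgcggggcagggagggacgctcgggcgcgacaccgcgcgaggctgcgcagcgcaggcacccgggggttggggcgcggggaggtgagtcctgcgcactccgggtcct

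The ROR element, the site of the Nr1d1 and ROR proteins, was found downstream of an Arntl start site at 113207511 on chromosome 7, with its first base at position 28 counted from that site. It is shown in capitals in a stretch of 30 bases.
Arntl ROR element, chr7:113207528-113207557, plus strand: ggaaggcagaAAGTAGGTCAgggacggagg
The element was present in 0.773% of the 32851 RefSeq promoter windows of 300 bases and in no window of Clock or Npas2. The shorter motif AGGTCA, which lies inside the Arntl element, was also found in 1 window of Clock on the opposite strand, and in 16.3% of all windows. The GC box was found in windows of each of the 3 genes and in 35.7% of all windows. No window of the 3 genes held the E-box CACGTG (7.15% of all windows), the E-box-like CACGTT (4.68%), the D-box TTATGNAA (3.38%) or the CRE TGACGTCA (1.79%). Both strands were searched, and a match is a description of these letters only.

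All 3 activator transcripts had higher means from CT36 on than at CT28 and CT32, the start of the same library series. Over CT28 to CT48 the straight line rose by 1.12 ± 0.16 log2 units per 24 h for Arntl, 0.62 ± 0.10 for Clock and 1.29 ± 0.22 for Npas2 (estimate ± standard error, SE). Over CT0 to CT24 only Npas2 had a line past the threshold, with 0.28 ± 0.08 log2 units per 24 h, and Clock instead had means up to 1.16 times its lowest. The values of every library are given first, and the plot of normalised values by time shows them.

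**Figure D1:**
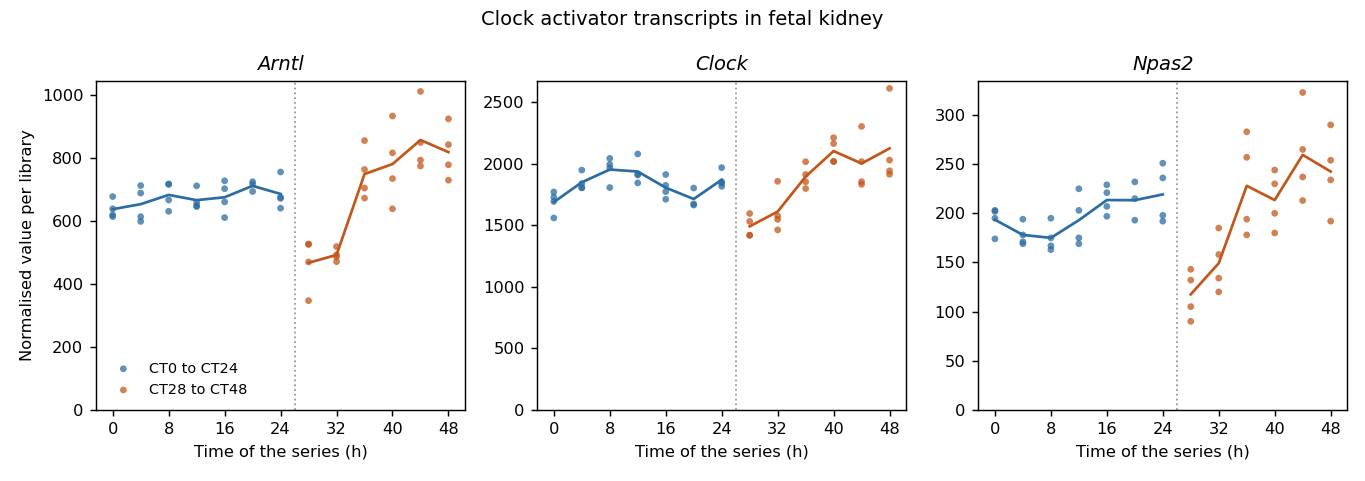
Normalised value of Arntl, Clock and Npas2 in each of the 51 libraries (points) against the time of the series in hours, with lines through the time-point means of each library series and a dotted line between the 2 series. The 16 libraries of CT36 to CT48 lie at 639 to 1012 for Arntl, above the 347 to 527 of the 8 libraries of CT28 and CT32, and the points of CT0 to CT24 are more tightly grouped.

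Arntl encodes the partner that both CLOCK and NPAS2 require. It had 526, 347, 527 and 470 at CT28, 519, 486, 471 and 493 at CT32, and 673, 705, 764 and 856 at CT36. The values were 817, 934, 735 and 639 at CT40, 794, 850, 775 and 1012 at CT44, and 843, 779, 925 and 730 at CT48. The 16 later libraries, from 639, did not overlap the 8 of CT28 and CT32, which reached 527. Time-point means lay from 468 ± 84.6 at CT28 to 858 ± 108 at CT44 (SD, n = 4 each), a ratio of 1.83. The transcript differed among the time points with an adjusted p of 1.52e-07, the same test calling all 3 members and 64.7% of the genes tested (limma, Benjamini-Hochberg).

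Over CT0 to CT24 Arntl was close to level. It had 620, 614, 639 and 678 at CT0, 599, 614, 689 and 713 at CT4, and 631, 667, 717 and 718 at CT8. It had 646, 649, 712 and 659 at CT12 and 661, 611, 728 and 703 at CT16, then 725, 717 and 694 at CT20 and 672, 676, 756 and 641 at CT24. All neighbouring time points overlapped, and the means lay from 638 at CT0 to 712 at CT20, a ratio of 1.12. The difference among the time points had a limma adjusted p of 0.376 and the 24 h terms, an added cosine and sine, an amplitude of 0.01 log2 units with an adjusted p of 0.939. The line was 0.11 ± 0.05 log2 units per 24 h with a limma adjusted p of 0.103, and 0.18 with an adjusted p of 0.0212 when the replicates numbered 4 were left out.

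Clock encodes the usual partner of BMAL1, a protein with histone acetyltransferase activity. In CT28 to CT48 it had 1595, 1531, 1418 and 1419 at CT28, 1857, 1575, 1462 and 1547 at CT32, and 2016, 1912, 1853 and 1798 at CT36. The values were 2018, 2163, 2018 and 2211 at CT40, 1854, 2303, 1832 and 2017 at CT44, and 2612, 1942, 2029 and 1914 at CT48. A single library of CT32, at 1857, reached into the range of CT36 to CT48, which began at 1798. The library with 2612 stood apart from the other 3 of CT48, and without the replicates numbered 1 the line was 0.62 log2 units per 24 h. Means lay from 1491 ± 87.4 at CT28 to 2124 ± 329 at CT48 (SD, n = 4 each), a ratio of 1.42, and the limma adjusted p of the difference among time points was 1.32e-05.

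Clock was the member with the clearest course in CT0 to CT24. It had 1770, 1693, 1728 and 1559 at CT0, 1948, 1805, 1838 and 1804 at CT4, and 1994, 1966, 2043 and 1806 at CT8. It had 2079, 1915, 1844 and 1908 at CT12 and 1912, 1711, 1773 and 1824 at CT16, then 1802, 1673 and 1664 at CT20 and 1852, 1968, 1816 and 1842 at CT24. No library of CT0 reached any library of CT4, CT8, CT12 or CT24, and no library of CT20 reached any of CT8. The means lay from 1688 ± 91.3 at CT0 to 1952 ± 102.6 at CT8 (SD, n = 4 each), a ratio of 1.16.

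The difference among the time points of CT0 to CT24 had a limma adjusted p of 0.00234 for Clock and 0.0228 for Npas2, so that 2 of the 3 members passed in a test that called 43.5% of all genes. The 24 h terms were past the threshold for Clock only, with an amplitude of 0.12 log2 units, a fitted peak at 8.07 h and a limma adjusted p of 0.000525, in a test that called 20.9% of genes. Over 24 h such terms cannot be told apart from a curved change with age. Clock was 0.20 ± 0.05 log2 units higher at CT12 than at CT0 (limma adjusted p = 0.00325), the only member among the 8.6% of genes called higher. It was 0.19 ± 0.05 lower at CT20 than at CT8, a value of -0.19 (limma adjusted p = 0.0118, 5.13% of genes called lower). At the same clock time a day apart it was 0.15 ± 0.05 higher at CT24 than at CT0 (limma adjusted p = 0.0158, 14.3% of genes called higher). The difference among time points had an adjusted p of 0.0525 for Clock without the replicates numbered 2. The CT20 call was lost without those numbered 2 or 3 (adjusted p = 0.124 and 0.21), and the CT24 call without those numbered 2 or 4 (0.134 and 0.0812). With all 51 libraries in 1 fit, none of these 3 differences of Clock passed (adjusted p = 0.113, 0.243 and 0.193), nor did its difference among time points (0.173) or its 24 h terms (0.0714).

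Npas2 encodes the paralog that can take the place of CLOCK. In CT28 to CT48 it had 90 to 143 at CT28 (median 118.5), 120 to 185 at CT32 (median 146), and 178, 257, 194 and 283 at CT36. The values were 200, 244, 230 and 180 at CT40, 323, 265, 213 and 237 at CT44, and 192, 290, 254 and 234 at CT48. The CT28 libraries lay below all libraries of CT36 to CT48, and 1 library of CT32, at 185, reached into their range. Means lay from 118 ± 24.3 at CT28 to 260 ± 47.4 at CT44 (SD, n = 4 each), a ratio of 2.21 and the widest of the 3 members. The limma adjusted p of the difference among time points was 1.45e-05.

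Npas2 in CT0 to CT24 had its low point where Clock was high. It had 195, 202, 174 and 203 at CT0, 169, 178, 171 and 194 at CT4, and 167, 175, 195 and 163 at CT8. It had 203, 175, 169 and 225 at CT12 and 197, 221, 207 and 229 at CT16, then 193, 232 and 215 at CT20 and 198, 236, 251 and 192 at CT24. Means lay from 175 ± 14.2 at CT8 to 219 ± 28.8 at CT24 (SD, n = 4 each), a ratio of 1.25, and every library of CT16 was above every library of CT4 and CT8. The line of 0.28 log2 units per 24 h had a limma adjusted p of 0.0127, and 1 of the 3 members was among the 12.9% of genes with a rising line. The 24 h terms had an amplitude of 0.12 log2 units with a fitted peak at 19.4 h and an adjusted p of 0.101. Npas2 was 0.28 ± 0.10 log2 units higher at CT20 than at CT8 with a limma adjusted p of 0.0595, which did not pass. The line was lost without the replicates numbered 2 or 3 (adjusted p = 0.102 and 0.178), as was the difference among time points (0.249 and 0.1).

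The only 4 h step at which any member passed lay between CT32 and CT36. At CT36 against CT32 Arntl was 0.60 ± 0.12 log2 units higher (limma adjusted p = 0.000441), Clock 0.24 ± 0.09 (0.0322) and Npas2 0.60 ± 0.19 (0.0131). All 3 members were among the 15.7% of genes called higher at that step. The call for Clock was lost when the replicates numbered 2, 3 or 4 were left out (adjusted p = 0.0962, 0.181 and 0.0834), and that for Npas2 without those numbered 2 or 4 (0.0626 and 0.122). Clock also did not pass without trend and robust moderation (0.0535) or without 2 libraries whose IDs have another prefix, AL (0.0507). No member passed at the other 4 h steps of CT28 to CT48. These called 0.118% of genes at CT32 against CT28, 17.7% at CT40 against CT36, 1.35% at CT44 against CT40 and 0.215% at CT48 against CT44. None passed at the 6 steps of CT0 to CT24 either, where 0.319, 1.61, 4.01, 1.21, 12.1 and 1.57% of genes were called from CT4 against CT0 through CT24 against CT20.

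Over 12 h the mean of each member was higher at the later time point in the comparisons that began at CT28 or CT32. For Clock the libraries of CT44 (1832 to 2303) and CT32 (1462 to 1857) overlapped. At CT40 against CT28 the difference was 0.75 for Arntl, 0.50 for Clock and 0.87 for Npas2 in log2 units, with limma adjusted p of 2.39e-05, 4.63e-05 and 0.000477, and 18.7% of genes were called higher. At CT44 against CT32 it was 0.79, 0.31 and 0.80 in the same order of genes, with adjusted p of 6.35e-06, 0.00368 and 0.000853 and 22.8% of genes called higher. For Clock this call was lost without the replicates numbered 2 (0.24, adjusted p = 0.0623). At CT48 against CT36, which uses neither early time point, it was 0.13, 0.15 and 0.10 with adjusted p of 0.522, 0.244 and 0.769, and 13.9% of genes were called. The ends of the series, CT48 against CT28, differed by 0.82 for Arntl, 0.50 for Clock and 1.05 for Npas2 (adjusted p = 2.48e-06, 1.81e-05 and 2.69e-05), with 25.7% of genes called higher. In CT0 to CT24 no member passed at CT16 against CT4 (4.51% of genes called) or at CT24 against CT12 (25.6%).

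The lines over CT28 to CT48 had limma adjusted p of 5.5e-07 for Arntl, 5.03e-06 for Clock and 7.93e-06 for Npas2, and all 3 members were among the 28.7% of genes with a rising line. Steeper lines in either direction were seen in 8.2% of genes than for Arntl, in 28.7% than for Clock and in 5.83% than for Npas2. The median absolute line of all genes was 0.37 log2 units per 24 h in CT28 to CT48 and 0.08 in CT0 to CT24. Without the libraries of CT28 and CT32 the lines were 0.32, 0.23 and 0.34, with adjusted p of 0.392, 0.426 and 0.56, so each call over CT28 to CT48 rests on these 2 time points. The 24 h terms over a line did not pass in CT28 to CT48 for any member, with amplitudes of 0.21 for Arntl, 0.10 for Clock and 0.22 for Npas2 and limma adjusted p of 0.0622, 0.161 and 0.146, in a test that called 7.35% of genes.

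**Figure D2:**
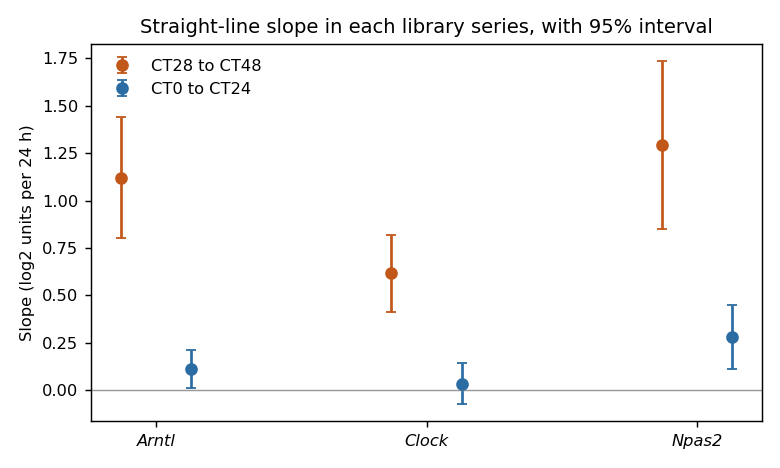
Slope of a straight line in log2 units per 24 h for Arntl, Clock and Npas2, in CT28 to CT48 (orange, left) and CT0 to CT24 (blue, right), with 95% intervals from the limma fit. The intervals of CT28 to CT48 lie above those of CT0 to CT24 for each gene, at 0.80 to 1.44 against 0.01 to 0.21 for Arntl.

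The line was steeper in CT28 to CT48 than in CT0 to CT24 for each member, as the plot of slopes shows. The difference was 1.01 ± 0.15 log2 units per 24 h for Arntl (limma adjusted p = 2.16e-07), 0.58 ± 0.11 for Clock (1.12e-05) and 1.01 ± 0.22 for Npas2 (7.54e-05). All 3 were among the 25.3% of genes with a steeper rise. The course over the 6 clock times that both library series hold also differed, with adjusted p of 1e-06 for Arntl, 2.51e-06 for Clock and 0.00314 for Npas2, in a test that called 57.8% of genes. Without CT28 and CT32 the differences of the lines were 0.20, 0.20 and 0.06 and none passed (adjusted p = 0.447, 0.401 and 0.905). For Npas2 the difference in course had an adjusted p of 0.0503 without the replicates numbered 4. As the library series and the age of the fetuses change at the same point, they cannot be told apart.

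The summed value of collecting duct markers moved at the same point of the series, where 15.7% of all genes were called higher at CT36 against CT32. The values of single markers are not given, so a few abundant ones may carry the sum. The summed value of 4 of 4 listed markers (Aqp2, Aqp3, Scnn1b and Calb1) lay from 28131 to 40112 in the 16 libraries of CT36 to CT48 and from 17857 to 23267 in the 8 of CT28 and CT32, with no marker at 0. The sums of the other kidney lists overlapped between these libraries. Of the other tissues, the liver markers summed to 1927 to 5389 in CT36 to CT48 and 1405 to 2535 in CT28 and CT32. The skeletal muscle markers summed to 139 to 1728 in CT36 to CT48 and 230 to 438 in CT28 and CT32. For macrophages, the sum of 2 of 3 listed markers lay from 2260 to 3547 in CT36 to CT48 and from 1529 to 2391 in CT28 and CT32. The sum of 3 of 4 listed adipose markers lay from 5176 to 10865 in CT36 to CT48 and from 9313 to 12298 in CT28 and CT32. The lowest of these markers, Adipoq, had a mean of only 1.24, so nearly all of this sum comes from the other markers measured. The part of these cell types in the rise of the activators was not tested.

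Per kilobase of exon, Clock was the most abundant member and Npas2 the least at every time point. The exonic lengths were 7523 bases for Arntl, 13727 for Clock and 4791 for Npas2, taken over all annotated transcripts, so that the ratios depend on which transcripts the fetal kidney uses. The Arntl level per kb was on average 56.1% to 78.6% of that of Clock over the time points. The Npas2 level per kb was 22.4% to 37.5% of that of Clock.

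The ratio of Npas2 to Clock transcripts was lowest at CT8 and highest at CT20 in CT0 to CT24, as the plot of Npas2 relative to Clock shows. The Npas2 level per kb was 35.8% ± 4.6 of that of Clock at CT20 (SD, n = 3), with libraries from 30.7% to 39.7%, and 25.7% ± 1.4 at CT8 (SD, n = 4), with libraries from 24% to 27.4%. These libraries did not overlap. The log2 ratio differed among the 7 time points with a permutation p of 0.00337, or 0.0202 adjusted over the 6 ratios examined (F = 5.12, 100000 resamples). The test was added once the values of both genes were known, so its p is not independent of them. With all 51 libraries in 1 fit, neither gene's own difference among the time points of CT0 to CT24 passed. The other 5 ratios, of Arntl to Clock and of Npas2 to Arntl in each series and of Npas2 to Clock in CT28 to CT48, had adjusted permutation p from 0.0993 to 0.817. In CT28 to CT48 the ratio of Npas2 to Clock did not pass (adjusted permutation p = 0.111). Its highest mean there was 37.5% ± 8.3 at CT44 and its lowest 22.4% ± 3.4 at CT28 (SD, n = 4 each). The libraries of these 2 time points did not overlap, but the time points were picked as the extremes, so this is not a test.

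**Figure D3:**
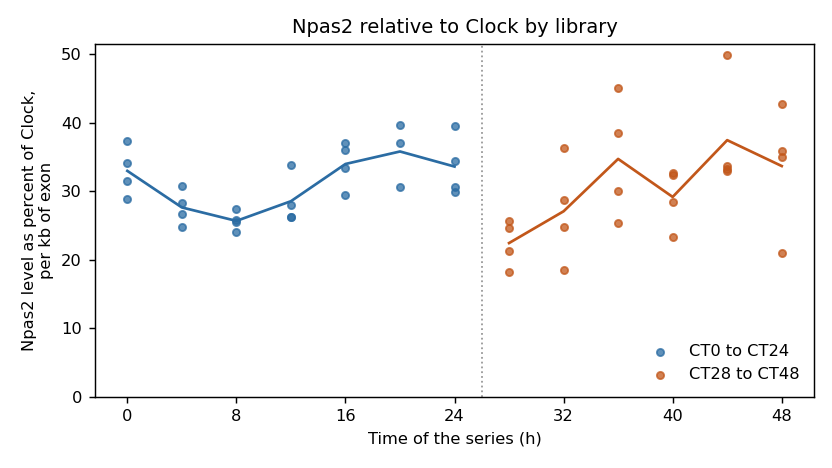
Npas2 level as a percent of the Clock level, both per kilobase of exon, in each of the 51 libraries (points) against the time of the series in hours, with lines through the time-point means of each library series. In CT0 to CT24 the mean is highest at CT20 with 35.8% and lowest at CT8 with 25.7%.

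Relations between the members were examined across libraries. In CT28 to CT48 the Arntl values of CT28 and CT32 lie apart from those of the later libraries. For Clock and Npas2 the ranges touch, as CT32 reached 1857 and 185 while CT36 began at 1798 and 178. Because of the step in Arntl, relations are given first inside CT28 and CT32 and inside CT36 to CT48. Among the 8 libraries of CT28 and CT32 Pearson's r was 0.185 for Arntl and Clock, -0.083 for Arntl and Npas2 and 0.159 for Clock and Npas2, with Spearman's rho of 0.214, -0.0714 and 0.357. Among the 16 libraries of CT36 to CT48 r was 0.141, 0.388 and -0.358 for the same pairs, with rho of 0.208, 0.441 and -0.274. No relation inside these sets passed, with adjusted p of at least 0.523 over the 6 (two-sided permutation tests, exact for the 8). Without the 2 libraries farthest from the median of the gene named first in each pair, r was 0.79, 0.00624 and 0.434 in CT28 and CT32 and 0.357, 0.301 and -0.415 in CT36 to CT48. Over all 24 libraries of CT28 to CT48, the step included, r was 0.768, 0.789 and 0.616 for the same pairs. These passed (adjusted permutation p = 6e-05, 6e-05 and 0.00568). With time-point means subtracted r was 0.0842, 0.0626 and -0.328, and none passed (adjusted permutation p of at least 0.867). Over the 24 libraries Nr1d1 had r of 0.428 with Arntl, 0.405 with Clock and 0.468 with Npas2. None of these passed (adjusted permutation p = 0.0871, 0.101 and 0.0631).

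In CT0 to CT24 r was -0.0899 for Arntl and Clock, 0.299 for Arntl and Npas2 and -0.23 for Clock and Npas2 over 27 libraries, with rho of -0.117, 0.235 and -0.257. Without the 2 farthest libraries r was -0.0213, 0.0854 and -0.282. Nr1d1, the repressor of Arntl, had r of 0.141 with Arntl, -0.279 with Clock and 0.147 with Npas2 there, with rho of 0.224, -0.283 and 0.153. Without the 2 farthest libraries these were 0.0654, -0.246 and -0.0227. None of these 6 relations passed, the smallest adjusted p of r and of rho among them being 0.223 and 0.264 over the 12 relations computed in the 2 series (permutation, two-sided).

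The other genes of the clock were counted from 5 lists of 52 genes, of which 49 were tested, 1 was below the minimum mean and 2 were not analysed here. In the difference among time points, 43 of the 49 passed in CT28 to CT48, in CT0 to CT24 or in both, as did 76.3% of all genes tested. In the lines of CT28 to CT48, all genes of the negative limb rose, as did most genes of the ROR element loop and of the clock outputs. The median line of all genes tested was -0.02 log2 units per 24 h in CT28 to CT48 and 0.00 in CT0 to CT24. Lines fell past the threshold for 30.7% of all genes in CT28 to CT48 and 10% in CT0 to CT24. Without CT28 and CT32 fewer genes of these lists had a rising line: Cry2 of the negative limb, Nr1d1 and Nr1d2 of the ROR element loop, Arnt2 of the bHLH-PAS relatives and Kdm5a of the partners and modifiers, and 0 had a falling one. Of all genes, 3.87% had a rising and 3.57% a falling line in that fit, with 16 libraries. The median line there was 1.26 log2 units per 24 h for the negative limb, 0.42 for the ROR element loop, 0.36 for the clock outputs, 0.15 for the bHLH-PAS relatives and -0.05 for the partners and modifiers. The plot of slopes of clock genes shows each gene.

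The negative limb holds the Per and Cry genes, whose products inhibit the activators. All 5 rose over CT28 to CT48, against 28.7% of all genes, with a median line of 1.03 log2 units per 24 h. Over CT0 to CT24, 0 of 5 had a line past the threshold, where 12.9% of all genes rose and 10% fell, and the median was 0.07. The line in CT28 to CT48 was 1.65 ± 0.35 for Per1, 1.46 ± 0.23 for Per2, 0.65 ± 0.16 for Per3, 0.55 ± 0.13 for Cry1 and 1.03 ± 0.12 for Cry2. At CT36 against CT32, 0 of these 5 were called higher, against 15.7% of all genes, with differences from -0.02 for Cry2 to 0.35 for Per2. For a list of 5 genes this count is not far from that share. Cry1 had 0.24 ± 0.10 (limma adjusted p = 0.0668), the same size as the 0.24 ± 0.09 of Clock, which was called. The 24 h terms in CT0 to CT24 passed for all 5 and for 20.9% of all genes. Fitted peaks lay at 3.07 h for Per1, 7.21 h for Per2, 2.08 h for Per3, 11 h for Cry1 and 0.43 h for Cry2. The limma adjusted p was nearest the threshold for Per1 (0.0292) and Cry2 (0.0247). With all 51 libraries in 1 fit these terms called 1.93% of all genes, and these 5 genes were not examined in that fit.

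The ROR element loop holds the receptors that act on the Arntl element shown above, with their cofactors. Of 8 genes, 6 rose and 1 fell over CT28 to CT48, where 28.7% of all genes rose and 30.7% fell, with a median line of 0.63 log2 units per 24 h. The repressors Nr1d1 and Nr1d2 rose by 0.63 ± 0.15 and 0.64 ± 0.13, and the activator Rora by 1.27 ± 0.25. Rora was also 0.70 higher at CT36 than at CT32 (limma adjusted p = 0.015), while Nr1d1 and Nr1d2 had differences of 0.05 and 0.00 there (adjusted p = 0.78 and 0.98). The coactivator Ppargc1a rose by 0.92 ± 0.12, its relative Ppargc1b by 0.48 ± 0.17 and the corepressor Ncor1 by 0.22 ± 0.07. Hdac3, the deacetylase that acts with Ncor1, fell by 0.38 on the log2 scale. In CT0 to CT24, Rora rose (0.46 ± 0.09), Hdac3 fell (-0.11 ± 0.03) and the other 6 did not pass, in a test where 12.9% of all genes rose and 10% fell.

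**Figure D4:**
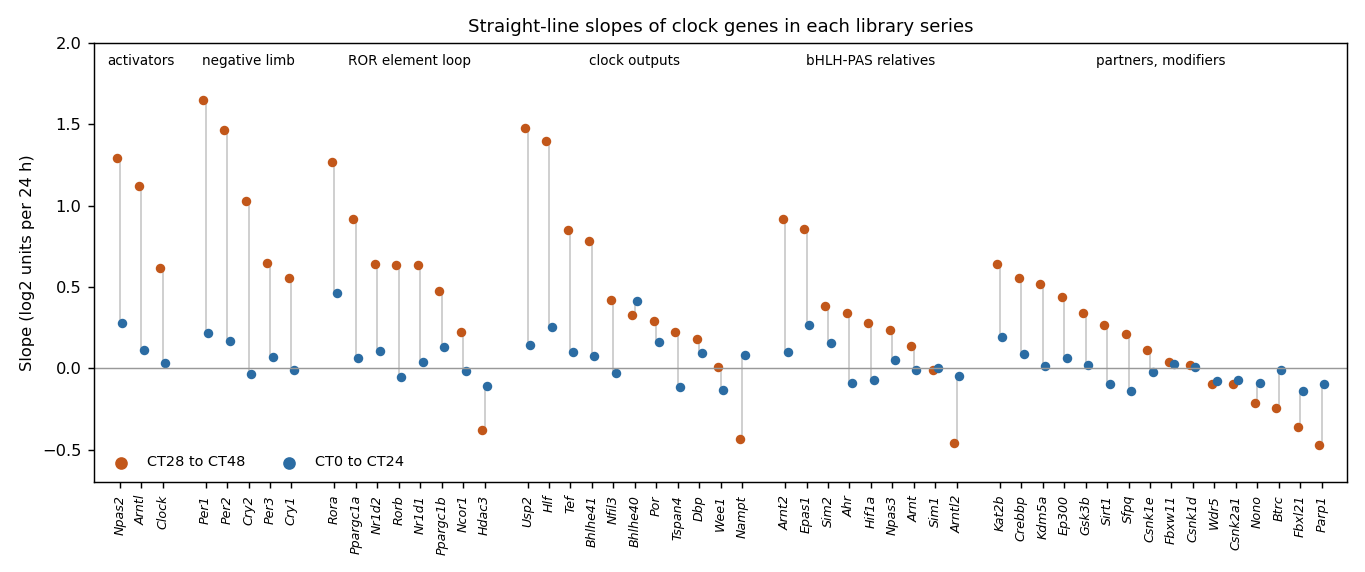
Slope of a straight line in log2 units per 24 h for the 3 activators and the 49 tested genes of the clock lists, in CT28 to CT48 (orange) and CT0 to CT24 (blue), ordered by the slope in CT28 to CT48 inside each list. All 5 genes of the negative limb and 6 of 8 of the ROR element loop rose in CT28 to CT48, while most slopes of CT0 to CT24 lie near 0.

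Of 11 genes listed as clock outputs, 8 rose and 1 fell over CT28 to CT48 (28.7% and 30.7% of all genes), with a median line of 0.33 log2 units per 24 h. The PAR bZIP factors Hlf and Tef rose by 1.39 ± 0.17 and 0.85 ± 0.14, while the third of them, Dbp, had 0.18 ± 0.16 (adjusted p = 0.34). The ubiquitin protease gene Usp2 rose by 1.48 ± 0.19, the repressor genes Bhlhe40 and Bhlhe41 by 0.33 ± 0.12 and 0.78 ± 0.33, and Nfil3, which competes with the PAR factors for D-boxes, by 0.42 ± 0.14. Por rose by 0.29 ± 0.08 and Tspan4 by 0.22 ± 0.07, and Wee1, a cell cycle kinase gene, had 0.01 ± 0.10. Nampt, the rate-limiting enzyme of NAD salvage, fell by 0.44 on the log2 scale. Of the 11, 3 rose and 1 fell over CT0 to CT24 (12.9% and 10% of all genes).

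Of 9 bHLH-PAS relatives, 6 rose and 0 fell over CT28 to CT48, beside 28.7% and 30.7% of all genes, with a median line of 0.28 log2 units per 24 h. The hypoxia factors Epas1 and Hif1a rose by 0.86 ± 0.10 and 0.28 ± 0.06, and their partners Arnt2 and Arnt by 0.92 ± 0.10 and 0.14 ± 0.05. The dioxin receptor gene Ahr rose by 0.34 ± 0.09 and Sim2 by 0.38 ± 0.10, while Sim1 had -0.01 ± 0.08 and Npas3 0.23 ± 0.27. Arntl2, the closest relative of Arntl, had -0.46 ± 0.28 with a limma adjusted p of 0.165. Over CT0 to CT24, 2 of the 9 rose and 0 fell, beside 12.9% and 10% of all genes.

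Of 16 partners and modifiers of the activators, 6 rose and 3 fell over CT28 to CT48, as did 28.7% and 30.7% of all genes, with a median line of 0.08 log2 units per 24 h. The acetyltransferase genes Crebbp, Ep300 and Kat2b rose by 0.56 ± 0.09, 0.44 ± 0.07 and 0.64 ± 0.09. The deacetylase gene Sirt1 rose by 0.27 ± 0.09, the kinase gene Gsk3b by 0.34 ± 0.07 and the demethylase gene Kdm5a by 0.52 ± 0.08. Parp1 fell by 0.47, the ubiquitin ligase gene Btrc by 0.24 and Nono, which encodes a partner of the PER proteins, by 0.21 on the log2 scale. Lines that did not pass were 0.21 for Sfpq, -0.36 for Fbxl21, -0.10 for Csnk2a1 and -0.09 for Wdr5. The lines of CT0 to CT24 rose for 1 of the 16 and fell for 3, as for 12.9% and 10% of all genes.

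Likeness of pattern was measured by Pearson's r of log2(value + 1) over the 51 libraries after subtraction of each series' mean, among the 11637 genes ranked, each with a mean of 100 or more. These libraries share their normalisation and, in CT28 to CT48, the step after CT32. For every gene named below r was weaker in CT0 to CT24 than in CT28 to CT48. For those most alike it lay from 0.341 (Man1a with Npas2) to 0.778 (Evi5 with Clock) in CT0 to CT24, and from 0.843 to 0.929 in CT28 to CT48. For the most opposed it lay from -0.36 to -0.714 in CT0 to CT24, and from -0.875 to -0.937 in CT28 to CT48. The genes most like Arntl were Gatsl2 (r = 0.912), Osbpl11 (0.901), G6pc (0.901), Slco2a1 (0.90) and Slc6a6 (0.896), and the most opposed were Znhit1 (-0.91), St6galnac3 (-0.91) and Anapc11 (-0.902). Those most like Clock were Zc3h12c (r = 0.852), Evi5 (0.849), Zbed6 (0.847), Fbxo11 (0.836) and Cpeb2 (0.834), and the most opposed were Dbnl (-0.889), Tmem231 (-0.861) and Adsl (-0.859). Those most like Npas2 were Adam23 (r = 0.857), Col7a1 (0.819), Zdhhc14 (0.816), Crispld2 (0.808) and Man1a (0.808), and the most opposed were Myct1 (-0.85), Hapln1 (-0.844) and Ttk (-0.818).

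The activators were not each other's closest genes by this measure. For Arntl, Npas2 ranked 809 and Clock 1404. For Clock, Arntl ranked 608 and Npas2 2058, and for Npas2, Arntl ranked 153 and Clock 2260.

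In the authors' deposited table of rhythm tests over the whole series, the combined q was 7.75e-06 for Arntl, 0.00067 for Clock and 5.36e-06 for Npas2, and 41.3% of the 16099 genes listed there have a q under 0.05. The period in the authors' deposited table was 28 h for Arntl and Clock, the longest in that table, and 26.6 h for Npas2. A JTK period of 28 h is listed for 49.2% of all genes in the authors' deposited table. The phase in the authors' deposited table was 15.1 h for Arntl, 12.8 h for Clock and 17.4 h for Npas2. These tests use both library series together.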

How the data were processed

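Per the labels' protocols, RNA from fetal kidneys was isolated on a QIASymphony, enriched for poly-A transcripts, made into Illumina TruSeq libraries and read on HiSeq machines. The submitters' processing notes name the build mm10 and the tools featureCounts 1.5.0-p3, STAR 2.5.2b and bcl2fastq. Neither the annotation, the strand setting nor the normalisation is given in the sources used here.

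The authors' deposited expression table, although named for counts, holds a score: whole numbers normalised before rounding, as its values show. Within time points the variance of genes with a mean from 1 to 3 was 3.36 times the mean in CT28 to CT48 and 0.698 times in CT0 to CT24, where it is below counting noise. Count models were therefore not used, and precision comes from the spread between libraries. As the spread of low genes in CT0 to CT24 was below counting noise, p-values there may be too small. Whether this holds for genes as high as the members was not tested. No libraries had identical values. The authors' other deposited table holds p-values and q-values with period and phase scores, with column names of the MetaCycle package, per the file headers.

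Genes with a mean of at least 10 (14426) were fitted in each library series apart by limma 3.58.1 (R 4.3.3), using trend and robust moderation. The fits used log2(value + 1), in which the added 1 understates changes of low genes. The models were time point as a factor, with contrasts, a line, 24 h terms over a line, and the interactions of series with line and with clock time. The threshold was a Benjamini-Hochberg adjusted p under 0.05 over all genes. The fits were also run on simulated data with independent noise in each library. That run cannot show how deviations shared between libraries affect the p-values. Symbols were matched to GENCODE M21 (15979 of 16099) and to RefSeq promoter windows. The members and lists were chosen with earlier results of these data known. Named genes are the members, the clock-list genes that passed in either library series, and the 5 most alike and 3 most opposed genes for each member, without predicted gene models and sex-linked genes. Some genes of these lists are not reported here. Some list members that did not pass are named beside their relatives. Alternatives were other pseudocounts, filters, scalings, moderation and series weights, 1 fit over all libraries, a replicate block, and leaving out replicates, 2 libraries with another ID prefix (AL), or time points. Leaving out each time point, time-point means as the unit, member ratios, and list counts without CT28 and CT32 were added after the data had been seen. So were a block of library ID sets and the relations inside CT28 and CT32 and inside CT36 to CT48.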

Additional observations from a re-analysis of the deposited data

Results flagged for a closer look

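One value stood far from its group: Clock in replicate 1 of CT48, with 2612 against 1914 to 2029 in the other 3 libraries. The gap to the nearest library was 0.835 of the range, above Dixon's critical value for 4 libraries. Among 36 groups of 4 libraries, 1 was found, and chance gives about 1 in 20.

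The members' courses differed between CT28 to CT48 and CT0 to CT24 by a test of the difference itself. For the line per 24 h the limma adjusted p was 2.16e-07 for Arntl, 1.12e-05 for Clock and 7.54e-05 for Npas2. For the course over clock time it was 1e-06 for Arntl, 2.51e-06 for Clock and 0.00314 for Npas2.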

How the results depend on the processing

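The alternatives gave 765 values for the members and their relations, of which 703 kept their direction and their side of the threshold. All values below other than lines are limma adjusted p, and where no cause is named the cause was not tested. Without CT28 and CT32, which leaves 16 libraries, the calls of CT28 to CT48 and of the series difference were lost: for Arntl, Clock and Npas2 the difference among time points had 0.505, 0.405 and 0.566, the lines were 0.32, 0.23 and 0.34, the course difference had 0.919, 0.19 and 0.713, and the line differences were 0.20, 0.20 and 0.061. With all 51 libraries in 1 fit, which gives both series 1 spread, the difference among time points in CT0 to CT24 had 0.173 for Clock and 0.493 for Npas2, the Npas2 line was 0.28 (0.243), the Clock 24 h terms had 0.0714, and the 24 h terms of CT28 to CT48 passed (0.00229 for Arntl, 0.0203 for Clock, 0.0135 for Npas2). In that fit the difference among time points in CT0 to CT24 called 1345 genes in place of 6277. 24 h terms without a line passed for Npas2 in CT0 to CT24 (0.0171) and for all members in CT28 to CT48 (2e-05 for Arntl, 0.000339 for Clock, 0.000697 for Npas2). The Arntl 24 h terms in CT28 to CT48 had 0.0489 after quantile scaling and 0.0281 without CT28, and the Npas2 24 h terms in CT0 to CT24 had 0.0467 without the 2 AL libraries. Leaving out replicates in turn, the difference among time points in CT0 to CT24 ranged from 0.0039 to 0.0525 for Clock and 0.015 to 0.249 for Npas2, and the lines there from 0.082 to 0.18 for Arntl, -0.0096 to 0.070 for Clock and 0.21 to 0.34 for Npas2. The Clock 24 h terms in CT28 to CT48 ranged from 0.022 to 0.526 and the Npas2 course difference from 0.00256 to 0.0503. Without CT0 the Clock line in CT0 to CT24 was -0.088. For Npas2 the difference among time points there had 0.0587 without CT4 and 0.0669 without CT8, and the line was 0.25 without CT4 and 0.27 without CT24. With time-point means as the unit the Npas2 line was 0.28 (0.145), the Clock 24 h terms in CT0 to CT24 had 0.136, and r of Arntl and Clock there was 0.0856. The labels do not say that a replicate number marks a shared litter or day. Deviations of same-numbered libraries correlated over 0.1 in 4 of 60 pairs in CT28 to CT48 (mean 0.0124, -0.0859 to 0.153) and in 25 of 78 in CT0 to CT24 (mean 0.0347, -0.302 to 0.38). The replicate block changed no member's call, with a Clock difference among time points of 0.000228 and an Npas2 line of 0.29 in CT0 to CT24, where that difference called 7434 genes in place of 6277. The numbers of 4 libraries of CT12 and CT20 differ from the sets that the library IDs form; in those sets 30 of 73 pairs of CT0 to CT24 were over 0.1 (mean 0.0718). With these sets as the replicate block, and without the AL libraries, the Npas2 24 h terms in CT0 to CT24 passed (0.0427) and Clock at CT36 against CT32 did not (0.0625), a fit chosen after seeing the data.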
